A study of Mus musculus with 12 samples.

Results

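The genes described here are the Wnt ligands, their Frizzled receptors, the secreted proteins that antagonize or amplify the ligands, and 2 feedback genes, measured by RNA sequencing of mouse embryonic fibroblasts (MEFs) that lacked RTF2. They were taken by name: every row whose mouse symbol is a Wnt, Fzd, Dkk or Sfrp gene with a number, plus Frzb, Wif1, Axin2, Notum and Rspo1 to Rspo4. The rule found 45 genes among the 24100 in the table, made up of 19 ligands, 10 receptors, 10 antagonists, 4 R-spondins and 2 feedback genes. RTF2 is a replisome protein, and the comparison asked how transcription changes when it is lost.

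WT MEFs carried Rtf2+/+ and RTF2-deficient MEFs carried Rtf2-/lox, a null allele over a floxed one. Cells of both genotypes were given Cre by retrovirus 72 hrs before RNA was collected, so the WT cells had also been exposed to Cre and virus. According to the study's methods the MEFs had been immortalized with SV40. There were 2 lines, from different mothers, each with WT and RTF2-deficient littermates. Each line and genotype had 3 libraries, which the study calls technical replicates, giving 12 libraries in 4 groups. P-values within a line and between the WT lines therefore measured the spread among libraries of a group. Those over both lines also took in any difference of the genotype effect between the lines. The 2 lines were the only replicates of the embryo.

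Wnt proteins are secreted, lipid-carrying signals that bind Frizzled receptors together with the coreceptors Lrp5 and Lrp6. In the canonical branch this stops the destruction of beta-catenin, which then acts with TCF/LEF factors on target genes such as Axin2. Other branches act on cell polarity and movement without beta-catenin. Fibroblasts both send and receive these signals, and Wnt5a, Sfrp and Dkk genes are well known from mesenchyme.

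The ligands carry the lipid on a conserved serine, added by the acyltransferase Porcupine. The coding bases around it are shown for the ligands that the results below turn on and for the most abundant ones, with the codon of that serine in capitals. Each was read from GENCODE M21 transcripts on GRCm38, and each lies in the last coding exon.
Wnt10a: tgcaaatgccacggcaccTCAggcagctgc
Wnt10b: tgcaaatgccatggaacgTCAggcagctgc
Wnt5a: tgtaagtgtcatggagtgTCTggctcctgt
Wnt16: tgccgctgccacggagttTCCggctcctgt
The Wnt10a stretch lay at chr1:74803150-74803179 (plus strand), the Wnt10b stretch at chr15:98772878-98772907 (minus strand), the Wnt5a stretch at chr14:28522509-28522538 (plus strand) and the Wnt16 stretch at chr6:22297794-22297823 (plus strand). Wnt10a and Wnt10b, close paralogs, differed at 3 of these 30 bases, and the other pairs differed at 8 to 12. No run of 75 bases of a Wnt10a or Wnt10b transcript occurred in a transcript of another gene, so a read of that length could be assigned to either.

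Library totals lay between 39360167 and 44695002 counts, with a median of 42066276. The level of Rtf2 separated the genotypes in every library: it was 44.8 to 57.8 CPM (counts scaled by library size after TMM normalization) in the 6 WT libraries and 5.44 to 6.66 CPM in the 6 RTF2-deficient ones. Rtf2 was 8.08-fold lower over both lines (log2 fold change -3.01 ± 0.06 (SE), edgeR quasi-likelihood test, adjusted p = 2.45e-11). Fibroblast markers were abundant, with 10 of 10 passing the filter on low counts and a summed level of 19143 to 31714 CPM, although Lum and Dcn, proteoglycans of many fibroblasts, stayed at or below 1.65 and 2.10 CPM. Summed epithelial, endothelial, leukocyte and muscle markers stayed at or below 14.0, 21.5, 9.69 and 19.0 CPM, and the cartilage collagen Col2a1 reached 2443 CPM. The 5 neural markers summed to 40.3 to 160 CPM, mostly Tubb3 and Stmn2, while Sox10 stayed at or below 0.145 CPM. The 3 libraries of WT line 2 stood apart. They alone expressed the Y-linked gene Ddx3y (91.8 to 107 CPM) and had Xist at or below 0.132 CPM, against 103 CPM or more in the other 9, and their summed interferon-stimulated genes lay at 362 to 4510 CPM against 42.2 to 1543 CPM in the other 9 libraries, ranges that overlap. Each result in line 2 rests on these libraries, and in line 2 sex-linked expression cannot be told apart from genotype.

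Levels between genes are compared as CPM per kb of the longest protein-coding transcript (RPKM). Group means summed over a role came to 92.3 to 112 RPKM for the receptors, 76.0 to 92.8 for the antagonists, 22.4 to 42.2 for the R-spondins and 23.5 to 30.7 for the ligands. The mean RPKM over all 12 libraries was 39.6 for Dkk3, a secreted Dickkopf relative, 34.99 for the receptor Fzd7, 32.2 for Sfrp2, a secreted Frizzled-related protein that can bind Wnts, and 27.9 for Rspo2, an R-spondin that stabilizes Frizzled receptors at the surface. The second receptor was Fzd1 at 20.3, which did not differ from Fzd2 at 20.2 beyond the spread between libraries. The leading ligands were Wnt5a at 8.10, known for signaling without beta-catenin, and Wnt16 at 4.24. The rank of Wnt16 did not hold in every group: its group means were 4.89 RPKM in WT line 1 and 9.11 in RTF2-deficient line 1 but 1.30 and 1.66 in line 2, below Wnt5b, Wnt10b, Wnt9a and Wnt2b, and without RTF2-deficient line 1 library 1 its mean was 2.80 RPKM, below those of Wnt5b and Wnt10b at 3.44 and 3.25 over all libraries. Rspo3 stood at 6.18.

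**Figure D1:**
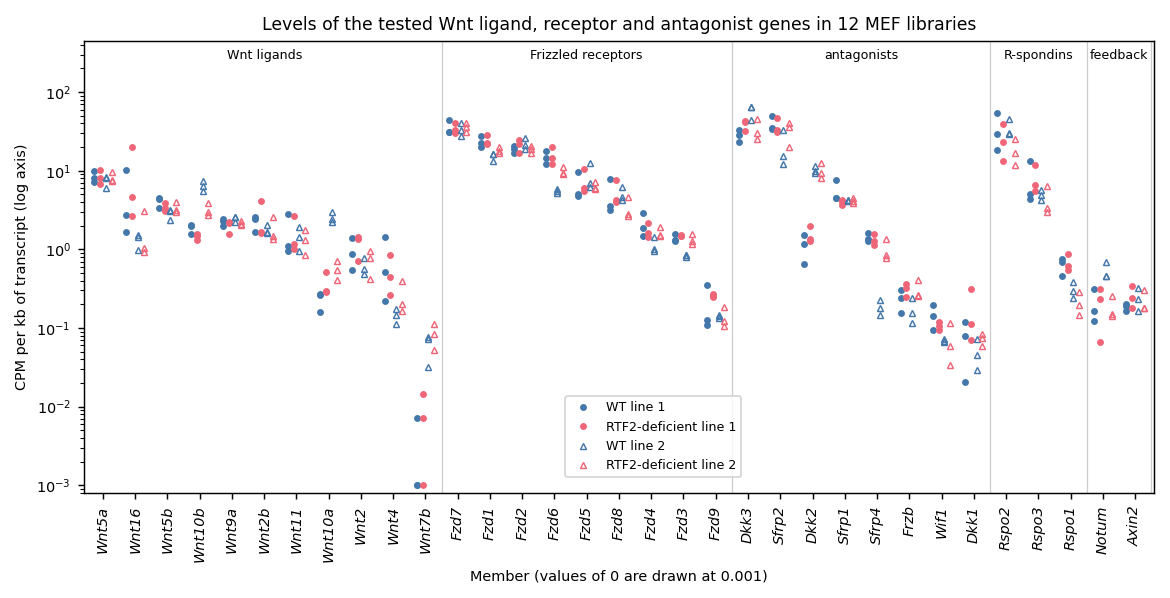
Levels of the 33 members that passed the filter, as CPM per kb of transcript on a log axis, with 1 point per library and members ordered by mean level within each role. Dkk3, Fzd7, Sfrp2 and Rspo2 lie highest, and the line 2 triangles of Wnt10a, Wnt10b and Sfrp4 fall into separate groups by genotype.

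Of the 45 members, 33 passed the filter on low counts. The 12 that did not were Wnt1, Wnt3, Wnt3a, Wnt6, Wnt7a, Wnt8a, Wnt8b, Wnt9b, Fzd10, Sfrp5, Dkk4 and Rspo4. Their highest count in any library was 14, for Wnt6, and the others had at most 9. The limit that a count of 0 allows, 3 counts, corresponds to 0.0651 to 0.0770 CPM depending on the library, which covers counting error only. Wnt1, Wnt3 and Wnt3a, the classical canonical ligands, were thus at or near the detection limit, while Wnt5a, Wnt5b, Wnt9a, Wnt10b and Wnt2b were all at 2.06 RPKM or more.

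Dkk3 ranged from 79.0 to 216 CPM and Fzd7 from 124 to 203 CPM. Sfrp2 was 67.0, 98.6 and 69.2 CPM in WT line 1, 66.8, 94.3 and 63.0 in RTF2-deficient line 1, 24.4, 66.4 and 30.9 in WT line 2 and 81.9, 40.0 and 72.1 in RTF2-deficient line 2. The genotypes overlapped in both lines, the WT lines did not overlap, and library 2 was highest in both line 1 groups. Wnt5a was even across groups, at 49.8, 56.9 and 69.4 CPM in WT line 1, 47.5, 56.6 and 72.6 in RTF2-deficient line 1, 56.3, 42.7 and 57.9 in WT line 2 and 52.1, 66.7 and 52.9 in RTF2-deficient line 2. Its log2 fold change over both lines was 0.07 ± 0.12 (adjusted p = 0.758, edgeR).

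With both lines together, 2 of the 33 members differed between genotypes at an adjusted p under 0.05, against 13.2% of all 14263 genes tested. Wnt10b, a ligand that acts through beta-catenin and restrains fat cell formation, was the 1 lower (8.18% of all genes), and Fzd3, a receptor best known in axon guidance, was the 1 higher (4.98%). None passed a log2 fold change of 1 as well, as 1.72% of all genes did. An unadjusted p under 0.05 was reached by 6 members, a count given without a share of all genes. In size, the log2 fold change had a median of 0.20 over the members and 0.15 over all genes. DESeq2 called 4 members, against 19.3% of all genes, adding Fzd6 and Sfrp4 as higher.

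Wnt10b was 5.30, 5.52 and 4.27 CPM in WT line 1 and 4.30, 3.56 and 4.05 in RTF2-deficient line 1. In line 2 it was 20.1, 15.1 and 17.2 CPM in WT and 7.48, 8.19 and 10.6 in RTF2-deficient cells. The genotypes overlapped in line 1, where the lowest WT library was just under the highest RTF2-deficient one, and not in line 2. Wnt10b fell 1.60-fold over both lines (log2 fold change -0.68 ± 0.15, adjusted p = 0.0102, edgeR), a call kept without each of the 12 libraries in turn. With the triplicates of each group summed to 1 sample the adjusted p was 0.245, in a fit that called no gene of all those tested.

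Fzd3 was 20.1, 16.6 and 16.3 CPM in WT line 1, 18.9, 18.8 and 19.4 in RTF2-deficient line 1, 10.7, 10.3 and 10.7 in WT line 2 and 16.3, 20.2 and 14.99 in RTF2-deficient line 2. Only WT line 2 stood low, and the genotypes of line 1 overlapped. The rise over both lines was 1.32-fold (log2 fold change 0.40 ± 0.12, adjusted p = 0.0418, edgeR). It kept its call without 3 of the 12 libraries and lost it without each of the other 9, with an adjusted p of up to 0.0950. With each library's interferon score (the median log2(CPM + 0.5) of 10 interferon-stimulated genes) as a term, a fit added after seeing the data, it was 0.108, and with summed triplicates it was 0.327.

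The other members that stood high in their roles did not pass the threshold over both lines. Rspo2 had a log2 fold change of -0.70 ± 0.31 (adjusted p = 0.168), Rspo3 -0.07 ± 0.30 (adjusted p = 0.897), Fzd7 0.03 ± 0.13 (adjusted p = 0.907) and Fzd1 0.15 ± 0.10 (adjusted p = 0.360, edgeR). Rspo3 was 41.5, 15.6 and 13.6 CPM in WT line 1, 36.3, 20.6 and 16.8 in RTF2-deficient line 1, 14.98, 17.4 and 12.9 in WT line 2 and 10.2, 9.34 and 19.4 in RTF2-deficient line 2, so that single libraries spanned more than the genotypes did.

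Axin2, the beta-catenin target that feeds back on the pathway, was low in every library, at 0.694 to 1.37 CPM in WT and 0.760 to 1.46 CPM in RTF2-deficient cells. Its log2 fold change was 0.17 ± 0.24 (adjusted p = 0.687). Notum, a secreted enzyme that removes the Wnt lipid, was 0.693, 0.272 and 0.362 CPM in WT line 1, 0.693, 0.147 and 0.512 in RTF2-deficient line 1, 1.54, 1.01 and 1.02 in WT line 2 and 0.313, 0.334 and 0.565 in RTF2-deficient line 2. Its 3 WT line 2 libraries were above all others, and its fold over both lines was -0.80 ± 0.42 on the log2 scale (adjusted p = 0.233). Words shared with the antisense genes Notumos and Myadml2os made up 26.2% of the 75-base words of its transcripts, and no source used here states whether the counting used strand.

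**Figure D2:**
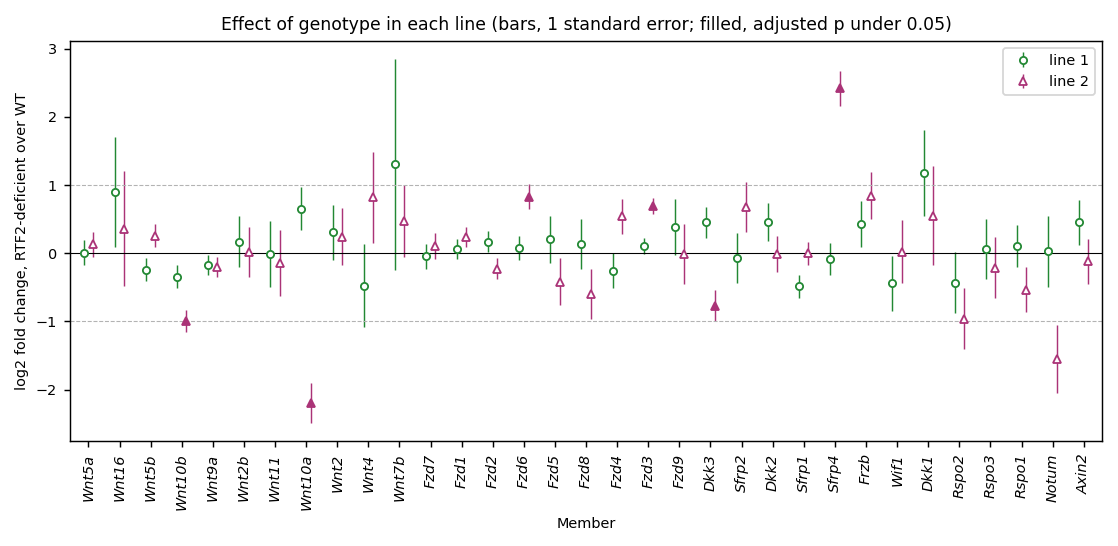
Log2 fold change of RTF2-deficient over WT in line 1 (circles) and line 2 (triangles) for each member tested, with bars of 1 standard error and filled symbols at an adjusted p under 0.05. No circle is filled in this fit, which does not pair the line 1 libraries, and 6 triangles are, of which Wnt10a at -2.19 and Sfrp4 at 2.42 lie beyond the dashed lines at 1.

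Without pairing of the libraries, the genotypes differed in 6 members in line 2 and in none in line 1. Line 1 alone, paired by number, gave 5 members (Dkk3, Wnt16, Rspo2, Fzd5 and Sfrp1, described further on), against 28.1% of all genes. A replicate block over all 12 libraries gave none in line 1. Without pairing, 12.5% of all genes passed the threshold in line 2 and 3.20% in line 1. Of the 33 members, 3 were lower in line 2 (Wnt10a, Wnt10b and Dkk3, with 7.03% of all genes) and 3 higher (Sfrp4, Fzd3 and Fzd6, with 5.42%), and 2 of them (Wnt10a and Sfrp4) also passed a log2 fold change of 1, as did 3.78% of all genes. In line 1, 1 member had an unadjusted p under 0.05 (Sfrp1, by edgeR), and DESeq2 called none. Neither count has a share of all genes to set it against. Absolute log2 fold changes had a median of 0.24 over the members and 0.13 over all genes in line 1, and of 0.42 and 0.20 in line 2. Groups of line 2 did not overlap for 6 members that were higher in RTF2-deficient cells (14.0% of all genes) and 4 that were lower (15.5%). With the interferon score as a term 2 members were lower in line 2 and 5 higher (7.49% and 6.44% of all genes in that fit), with Fzd4 and Fzd7 added and Dkk3 lost. Summed cell type markers also differed between the line 2 genotypes. Fibroblast markers lay at 19143 to 21321 CPM in WT and 21425 to 24379 CPM in RTF2-deficient cells. Cartilage markers lay at 768 to 903 CPM in WT and 935 to 1110 CPM in RTF2-deficient cells, and muscle markers at 6.84 to 9.87 and 12.8 to 19.0 CPM. Leukocyte markers lay at 6.46 to 9.69 CPM in WT and 4.77 to 4.98 CPM in RTF2-deficient cells, and neural markers, which overlapped, at 40.3 to 80.1 and 78.1 to 125 CPM. A few genes carried these sums, Cd68 most of the leukocyte one, and listed genes went both ways: Pdgfra was 17.2 to 21.7 CPM in WT and 4.50 to 10.1 CPM in RTF2-deficient cells, and Csf1r, at 0.608 to 1.17 and 0.904 to 1.83 CPM, overlapped. The median log2(CPM + 0.5) over a list overlapped between the line 2 genotypes for fibroblast, cartilage, muscle and leukocyte markers, and for neural markers it was 3.13 to 3.52 in WT and 1.66 to 2.16 in RTF2-deficient cells, the reverse of the direction of their sum. The part of these markers in the line 2 results was not tested.

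Wnt10a, a ligand of skin, tooth and hair, was 0.669, 0.396 and 0.651 CPM in WT line 1, which correspond to 28, 16 and 27 counts. It was 1.27, 0.711 and 0.731 CPM in RTF2-deficient line 1, 5.49, 5.98 and 7.39 in WT line 2 and 1.01, 1.33 and 1.76 in RTF2-deficient line 2. The WT line 2 libraries stood above all 9 others and the WT line 1 libraries below all 9 others (1.88% of all genes). In line 2 Wnt10a fell 4.58-fold (log2 fold change -2.19 ± 0.29, adjusted p = 0.000957, edgeR), and in line 1 it was higher without passing the test (0.65 ± 0.32, adjusted p = 0.399), with no overlap between the groups, as in 9.79% of all genes.

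Sfrp4, a secreted Wnt-binding antagonist, was 5.21, 5.47 and 6.56 CPM in WT line 1, 4.56, 5.22 and 6.44 in RTF2-deficient line 1, 0.912, 0.595 and 0.732 in WT line 2 and 3.13, 3.41 and 5.47 in RTF2-deficient line 2. WT line 2 lay below all 9 other libraries, and RTF2-deficient line 2 reached into the range of line 1. Sfrp4 rose 5.35-fold in line 2 (log2 fold change 2.42 ± 0.26, adjusted p = 0.0003) and had a log2 fold change of -0.09 ± 0.23 in line 1 (adjusted p = 0.928, edgeR).

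Fzd6, a receptor of the planar polarity branch, was 76.6, 62.0 and 52.5 CPM in WT line 1, 86.6, 62.8 and 52.1 in RTF2-deficient line 1, 25.4, 22.4 and 24.1 in WT line 2 and 39.9, 39.8 and 48.1 in RTF2-deficient line 2. Again the WT line 2 libraries were the lowest of all 12. It rose 1.78-fold in line 2 (log2 fold change 0.83 ± 0.18, adjusted p = 0.0138), and Fzd3 rose 1.62-fold there (0.70 ± 0.12, adjusted p = 0.00367, edgeR).

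Dkk3 was 95.8, 111 and 79.0 CPM in WT line 1 and 138, 145 and 108 in RTF2-deficient line 1. In line 2 it was 216, 216 and 148 CPM in WT and 103, 84.6 and 153 in RTF2-deficient cells, so the line 2 groups overlapped through library 3 of each. The fall in line 2 was 1.71-fold (log2 fold change -0.77 ± 0.23, adjusted p = 0.0489, edgeR) and kept its call without 2 of the 12 libraries, with an adjusted p of up to 0.188 without the others. It also lost its call with the interferon score as a term (adjusted p = 0.106, edgeR). Wnt10b fell 1.998-fold in line 2 (-0.999 ± 0.16, adjusted p = 0.00291). Wnt10a, Wnt10b, Sfrp4, Fzd3 and Fzd6 kept their line 2 calls without each library in turn.

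**Figure D3:**
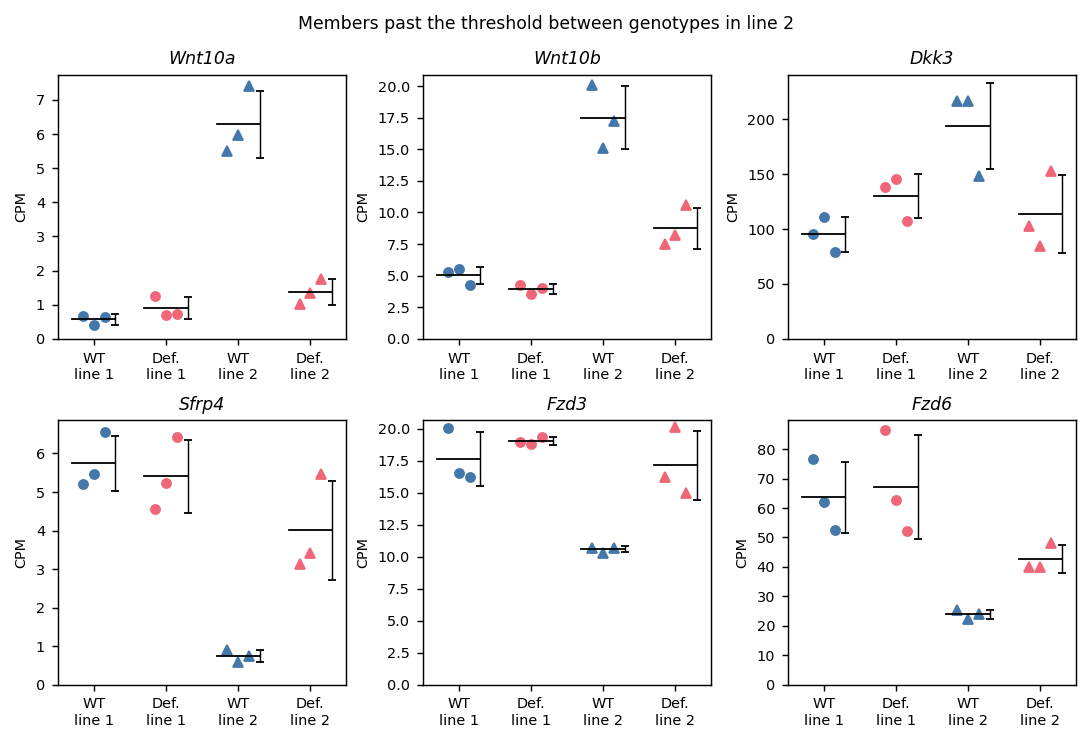
CPM in each library of the 6 members past the threshold between genotypes in line 2, with the mean (line) and SD (bar) of the 3 libraries of each group and axes from 0. WT line 2 is the group apart for Wnt10a at 5.49 to 7.39 CPM, Wnt10b, Sfrp4, Fzd3 and Fzd6, and the line 2 groups of Dkk3 overlap.

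The effect of genotype itself differed between the lines in 2 members, Wnt10a and Sfrp4, against 1.29% of all genes. For Wnt10a the effect in line 2 minus that in line 1 was -2.85 ± 0.43 on the log2 scale (adjusted p = 0.0132), and for Sfrp4 it was 2.51 ± 0.35 (adjusted p = 0.00894, edgeR). Both held without each library in turn. For Wnt10b the difference was -0.66 ± 0.23 (adjusted p = 0.333), so its effect in line 2 was not told apart from that in line 1. In line 1 alone Wnt10b was not called, unpaired (-0.34 ± 0.16, adjusted p = 0.376) or paired (-0.34 ± 0.13, adjusted p = 0.0858, edgeR).

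Between WT line 2 and WT line 1, 11 of 33 members differed, more than between genotypes in any comparison above, against 14.0% of all genes, and 8 of them by more than 1 on the log2 scale, as did 6.76% of all genes. Dkk2, Wnt4, Wnt7b and Fzd4 are named in this comparison after their values were seen. Lower in WT line 2 were Fzd1, Fzd3, Fzd4, Fzd6, Sfrp4 and Wnt4 (7.31% of all genes were lower), and higher were Dkk2, Dkk3, Wnt10a, Wnt10b and Wnt7b (6.70%). The median size of the difference was 0.62 over the members and 0.18 over all genes. With the WT libraries alone and paired by number, a fit added after seeing the data, 7 were lower and 7 higher (8.86% and 8.72% of all genes), and Wnt4 lost its call (adjusted p = 0.0501, edgeR). Without the pairs that fit gave 4 and 5 (4.70% and 4.12%). With the interferon score as a term 11 were lower and 4 higher (10.8% and 8.41% of all genes). Summed interferon-stimulated genes lay at 45.8 to 173 CPM in WT line 1 and 362 to 4510 CPM in WT line 2, cartilage markers at 1623 to 2349 CPM and 768 to 903 CPM, neural markers at 92.6 to 151 CPM and 40.3 to 80.1 CPM, and fibroblast markers at 22893 to 29995 CPM and 19143 to 21321 CPM. Epithelial markers were higher in WT line 2, at 6.85 to 9.71 CPM against 2.08 to 2.39 CPM in WT line 1, and so were leukocyte markers, at 6.46 to 9.69 CPM against 2.43 to 3.63 CPM. The median log2 level over the neural list was higher in WT line 2, at 3.13 to 3.52 against 1.13 to 1.72, the reverse of its sum. The part of the sex-linked genes and of these marker lists in the differences was not tested.

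Wnt10a was 10.9-fold higher in WT line 2 (log2 fold change 3.45 ± 0.31, adjusted p = 5.22e-05) and Wnt10b 3.47-fold higher (1.796 ± 0.17, adjusted p = 5.58e-05). Sfrp4 was 7.67-fold lower (-2.94 ± 0.26, adjusted p = 4.5e-05, edgeR). All 3 were also called between the genotypes of line 2, a comparison that shares the WT line 2 libraries with this one. Dkk2, a secreted antagonist that binds Lrp coreceptors, went another way: it was 2.44, 4.33 and 5.64 CPM in WT line 1, 4.70, 7.31 and 5.02 in RTF2-deficient line 1, 36.5, 42.2 and 34.9 in WT line 2 and 47.1, 35.1 and 30.02 in RTF2-deficient line 2. It separated the lines in both genotypes, 9.15-fold between the WT lines (3.19 ± 0.29, adjusted p = 5.5e-05), and its log2 fold change between genotypes in line 2 was -0.02 ± 0.26 (adjusted p = 0.976). Wnt7b was counted 0, 0 and 1 times in WT line 1 and 5, 11 and 11 times in WT line 2.

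WT line 2 lay below all 9 other libraries for 5 members (Fzd1, Fzd3, Fzd4, Fzd6 and Sfrp4), 15.2% of those tested against 7.10% of all genes, and above all 9 for 3 (Notum, Wnt10a and Wnt10b), 9.09% against 5.64%. No member had all 6 RTF2-deficient libraries above or below all 6 WT libraries, whereas 1.56% and 4.41% of all genes did.

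The spread among libraries of a group is given for the members and for all genes as a description, with no test. The highest library of a group over its lowest, taken as the median of the 4 groups, had a median of 1.64 over the 32 members with no library at 0 and 1.24 over all genes, and 3 members lay below the latter (Fzd3, Sfrp1 and Wnt9a). Wnt16 spread most at 4.74 and Fzd3 least at 1.14. In both line 1 groups library 1 was the highest for 17 of 33 members (51.5% against 28.0% of all genes). For all 17, library 3 was also the highest in RTF2-deficient line 2, and 21.5% of all genes had both patterns together. Of the 3987 genes with the first pattern, 3061 had both.

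In line 1, libraries with the same number moved together. The correlation of their deviations from the group mean, over all genes tested, was 0.745, 0.616 and 0.673 for the 3 numbers, so the number was taken to pair them. With line 1 alone and the pairs as a block, a fit added after seeing the data, 5 members passed the threshold, against 28.1% of all genes, and without the block none did, against 2.52%. This fit has few residual degrees of freedom. Of the 33 members, 8 were higher in all 3 pairs (30.3% of all genes) and 8 lower (28.4%). Between the line 1 genotypes, summed endothelial markers lay at 10.7 to 14.7 CPM in WT and 17.6 to 21.5 CPM in RTF2-deficient cells and epithelial markers at 2.08 to 2.39 and 2.79 to 4.54 CPM, while the median log2 levels over both lists overlapped. The cartilage genes Acan, Col2a1 and Sox9 were higher in each of the 3 pairs, Acan at 86.4, 27.9 and 42.7 CPM in WT and 169, 83.4 and 78.2 CPM in RTF2-deficient cells. Of the 2 others on that list, Col9a1 was higher in 1 of the 3 pairs and Matn1 was at or below 0.0248 CPM. The part of these markers in the line 1 results was not tested. Sfrp1 and Fzd5 are named here after their values were seen.

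Rspo2 was 180, 97.2 and 61.8 CPM in WT and 129, 77.4 and 44.9 in RTF2-deficient line 1, lower in each of the 3 pairs although the groups overlapped widely (paired log2 fold change -0.43 ± 0.04, adjusted p = 0.000219). Wnt16 was 33.7, 8.94 and 5.48 CPM in WT and 66.0, 15.1 and 8.66 in RTF2-deficient line 1, higher in each pair (0.83 ± 0.07, adjusted p = 7.77e-05, edgeR). Dkk3 was also higher in each pair (0.45 ± 0.04, adjusted p = 8.61e-05), in line 1 the opposite direction to its fall in line 2. The 2 others were Fzd5, higher (0.21 ± 0.04, adjusted p = 0.00682), and Sfrp1, lower (-0.46 ± 0.12, adjusted p = 0.0193, edgeR). For Fzd5, 15.7% of the 75-base words of its transcripts were shared with the gene Gm38058. In line 2 Rspo2 was 150, 102 and 96.7 CPM in WT and 55.5, 39.3 and 84.7 in RTF2-deficient cells, all below WT. Its log2 fold change there, from the unpaired fit, was -0.96 ± 0.45 and did not pass (adjusted p = 0.190, edgeR). Unpaired, Rspo2 in line 1 alone did not pass either (-0.44 ± 0.48, adjusted p = 0.741, edgeR). Wnt16 was 4.67, 4.94 and 3.19 CPM in WT line 2 and 3.37, 3.002 and 9.99 in RTF2-deficient line 2.

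**Figure D4:**
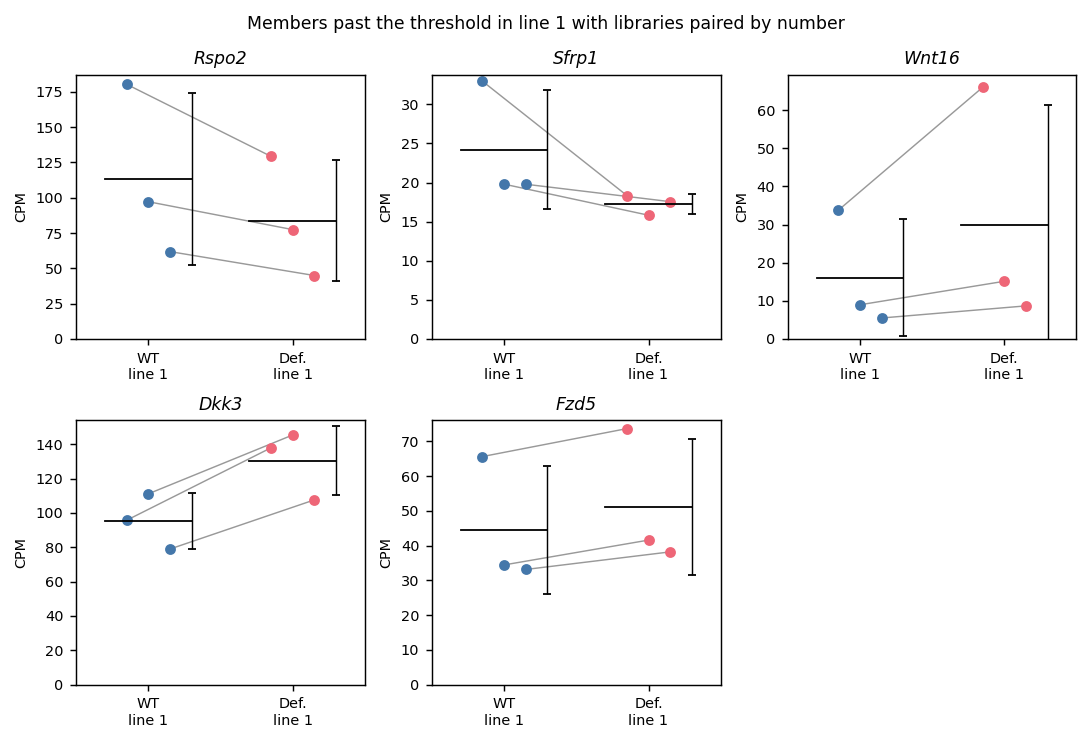
CPM in line 1 of the 5 members past the threshold when libraries are paired by number, with gray lines joining libraries of the same number, the mean (line) and SD (bar) of each group and axes from 0. Every pair of Rspo2 and Sfrp1 falls and every pair of Wnt16, Dkk3 and Fzd5 rises, while the groups of Rspo2, Wnt16, Dkk3 and Fzd5 overlap and those of Sfrp1 do not.

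The rest of the pathway was read from 82 other genes, of which 74 were tested. Over both lines 2 were lower and 4 higher, against 8.18% and 4.98% of all genes. The count higher was 13 by DESeq2 and 10 without WT line 1 library 1. Those fits called 19.3% and 11.6% of all genes in either direction, and their shares higher alone are not given. With summed triplicates the counts higher and lower were both 0. Dvl1, Lrp5, Znrf3 and Ccn4 are named because they are the others past the threshold, chosen after their values were seen. The counts by role were 2 of 9 tested coreceptors and alternative receptors (Lrp5 and Tspan12, higher), 1 of 5 R-spondin receptors and their ubiquitin ligases (Znrf3, higher), 1 of 18 beta-catenin and destruction complex genes (Dvl1, lower), 1 of 13 nuclear factors (Tle2, lower) and 1 of 6 beta-catenin targets (Ccn4, higher). None of the 6 genes of ligand maturation, the 6 other extracellular regulators or the 11 planar polarity genes passed.

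Tle2, a corepressor that binds TCF/LEF factors, was 5.56, 5.05 and 4.03 CPM in WT line 1, 2.84, 2.01 and 1.88 in RTF2-deficient line 1, 5.71, 5.67 and 5.12 in WT line 2 and 1.13, 1.21 and 2.22 in RTF2-deficient line 2. All 6 RTF2-deficient libraries were below all 6 WT libraries, as in 4.41% of all genes. The fall of Tle2 was 2.80-fold (log2 fold change -1.48 ± 0.21, adjusted p = 0.000724, edgeR). Dvl1, which carries the signal from Frizzled, was 50.3 to 61.7 CPM in WT and 32.5 to 38.8 CPM in RTF2-deficient cells, again without overlap, and fell 1.53-fold (-0.62 ± 0.07, adjusted p = 0.000109). Both fell in line 1 and in line 2, at adjusted p = 0.0420 and 0.00146 for Tle2 and 0.00884 and 0.000976 for Dvl1 (edgeR).

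The coreceptor gene Lrp5 was 67.3 to 78.5 CPM in WT and 79.1 to 115 CPM in RTF2-deficient cells and rose 1.34-fold (log2 fold change 0.42 ± 0.07, adjusted p = 0.0018). Znrf3, a ligase that removes Frizzleds from the surface, was 10.1 to 13.5 CPM in WT and 13.6 to 19.2 CPM in RTF2-deficient cells and rose 1.40-fold (0.48 ± 0.10, adjusted p = 0.0084, edgeR). Neither overlapped between genotypes, although the ranges nearly touched, and 1.56% of all genes lay wholly above WT in this way.

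Tspan12, a Frizzled-associated tetraspanin, was 24.7, 18.5 and 17.0 CPM in WT line 1, 36.6, 22.7 and 20.1 in RTF2-deficient line 1, 2.54, 6.37 and 4.96 in WT line 2 and 14.7, 13.8 and 15.9 in RTF2-deficient line 2. Its rise of 2.03-fold (log2 fold change 1.02 ± 0.28, adjusted p = 0.0350) came with overlap in line 1 and lost its call with the interferon score as a term. Ccn4, a beta-catenin target, rose 1.68-fold (0.74 ± 0.18, adjusted p = 0.0161), and its effect was larger in line 2 than in line 1 by 0.99 ± 0.20 on the log2 scale (adjusted p = 0.0392, edgeR). For both genes WT line 2 was the lowest group.

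None of the 4 reference genes passed the test over both lines. Ctnnb1, which encodes beta-catenin, was 729 to 852 CPM over all 12 libraries (log2 fold change -0.05 ± 0.06, adjusted p = 0.608). Lrp6 had a log2 fold change of 0.35 ± 0.16 (adjusted p = 0.170), the target Nkd1 -0.31 ± 0.33 (adjusted p = 0.559) and the factor Lef1 0.85 ± 0.33 (adjusted p = 0.115, edgeR). Lef1 was 0.926 to 3.67 CPM in WT and 2.50 to 6.62 CPM in RTF2-deficient cells, and DESeq2 called it higher.

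**Figure D5:**
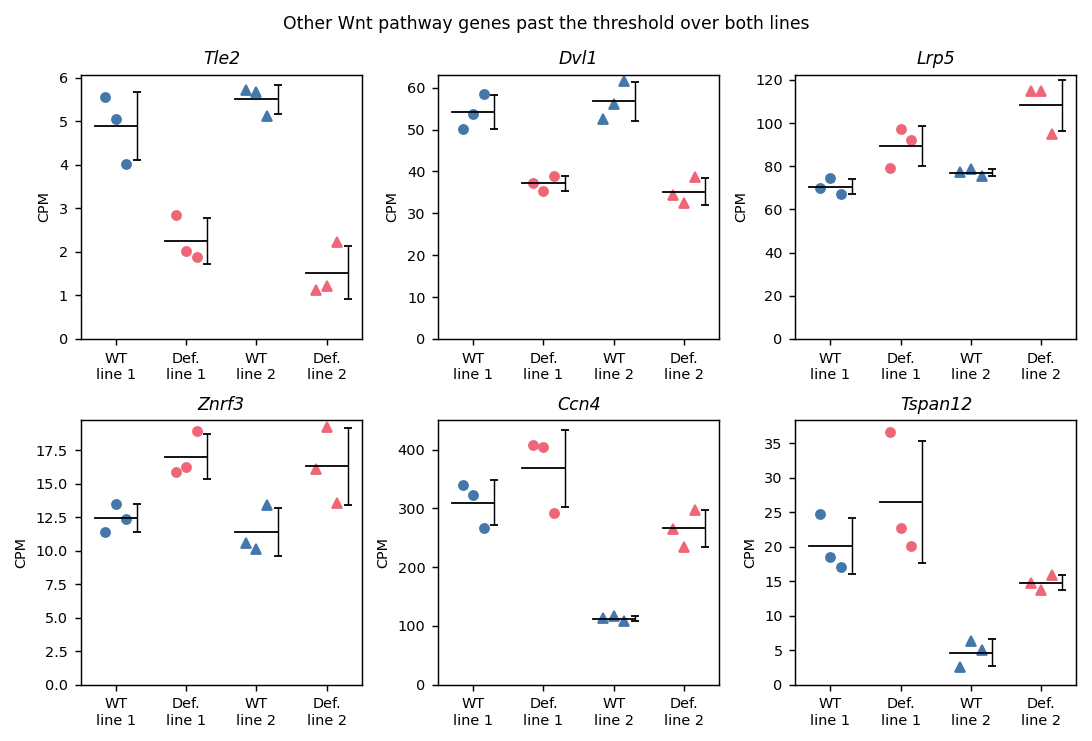
CPM in each library of the 6 other pathway genes past the threshold over both lines, with the mean (line) and SD (bar) of each group and axes from 0. Tle2, Dvl1, Lrp5 and Znrf3 separate the genotypes in both lines, and Ccn4 and Tspan12 are lowest in WT line 2.

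The bases before the start sites were searched for the TCF/LEF word (CTTTG followed by a pair of letters that are each A or T, on either strand) in the 250 bases upstream of each RefSeq start. A match occurred in 4 of the 33 windows of the 30 members that had one, and in 14.8% of all 32851 windows. The window of Fzd7, the most abundant receptor, is shown with its match in capitals, read on the opposite strand to the word above, at chr1:59481897-59482146 (plus strand, GRCm38.p6), which ends at the base before its start.
Fzd7: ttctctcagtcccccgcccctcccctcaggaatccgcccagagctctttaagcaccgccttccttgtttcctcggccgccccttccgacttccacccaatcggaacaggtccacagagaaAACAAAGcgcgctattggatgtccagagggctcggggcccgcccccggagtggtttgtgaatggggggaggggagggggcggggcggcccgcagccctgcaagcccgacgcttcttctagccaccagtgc
A match is a description of the letters and not a bound site.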

How the data were processed

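RNA was sequenced from 12 MEF libraries. The authors deposited a raw read count per Entrez gene in 1 column per library, without normalization. The methods name Salmon and tximport on UCSC mm10 gene models, whereas HTSeq and mm10 stand in the submitters' processing notes, so the counting tool is not settled. No source used here states use of strand or poly(A) selection. Groups came from the sample labels.

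Symbols came from RefSeq (24045 of 24100 identifiers matched) and transcript lengths from GENCODE M21. Genes passing filterByExpr on the 4 groups were TMM-normalized and tested with edgeR 4.0.16 (glmQLFit and glmQLFTest, R 4.3.3), with terms for line and genotype. Contrasts in a layout of the 4 groups gave each line, their difference and the WT lines. P-values were Benjamini-Hochberg adjusted over all 14263 genes tested, with a threshold of 0.05. The standard error is the size of the unshrunken coefficient over the square root of F. Scripts were tested on simulated data.

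Named genes were Rtf2, the members called in a genotype comparison or its difference between lines, the 2 most abundant members of each role, Axin2 and Notum, other pathway genes called beyond 1 on the log2 scale, and Ctnnb1, Lef1, Nkd1 and Lrp6. The members and lists were chosen with earlier results of these data known. Alternatives were RLE size factors, no filter, 1 CPM in 6 libraries, DESeq2 1.42.0, a replicate block, summed triplicates and each library left out. Fits of line 1 alone and the WT libraries alone, and a term for the median log2(CPM + 0.5) of 10 interferon-stimulated genes, were added after seeing the data.

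The replicate numbers of the labels paired the libraries of line 1 (correlations of deviations 0.745, 0.616 and 0.673) and the WT lines (0.467, 0.457 and 0.375), as seen in the data, but not line 2 (-0.678, 0.217 and -0.375). There the libraries moved together under other numbers, WT library 1 with RTF2-deficient library 3 (0.713), 2 with 1 (0.713) and 3 with 2 (0.519), and no pairing other than that of the labels was fitted. Depth was similar in all libraries.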

Additional observations from a re-analysis of the deposited data

Results flagged for a closer look

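For 2 members the change with genotype was not the same in both lines, by the test of the difference itself. For Wnt10a the log2 fold change in line 2 minus that in line 1 was -2.85, with WT line 2 at 5.49 to 7.39 CPM and every other library at or below 1.76 CPM. For Sfrp4 it was 2.51, with WT line 2 at 0.595 to 0.912 CPM and every other library at or above 3.13 CPM. In both, the group that stood apart was WT line 2, the only group with Y-linked expression and without Xist, and sex-linked expression cannot be told apart from genotype there.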

How the results depend on the processing

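Over both lines, the count of members higher was 1, and became 3 by DESeq2 (Fzd3, Fzd6 and Sfrp4), 0 with the replicate block, 0 with summed triplicates and 0 with the interferon score as a term. The count lower was 1 and became 0 with summed triplicates, a fit in which no gene of all those tested was called. Other pathway genes went from 4 higher to 13 by DESeq2 and to 0 with summed triplicates, and from 2 lower to 0 with summed triplicates. The members whose effect was lower in line 2 than in line 1 went from 1 to 2 by DESeq2 (Dkk3 added). The share of all genes that DESeq2 called there is not given. In line 1, none became 2 lower and 3 higher with the line alone and a replicate block (28.1% of all genes in either direction). With the interferon score as a term, 3 higher in line 2 became 5 (6.44% of all genes), and 6 lower in WT line 2 became 11 (10.8%). The WT libraries alone gave 7 lower and 7 higher with a replicate block (8.86% and 8.72% of all genes) and 4 and 5 without it (4.70% and 4.12%). In line 2 and in the difference between lines the replicate block left the counts at 3 lower and 3 higher, and at 1 and 1, although Dkk3 lost its call in line 2 (adjusted p = 0.0850) and Notum gained one. The numbers did not pair the libraries of line 2, so this block joins libraries that did not move together. The adjusted p of Fzd3 over both lines was 0.0643 with the block, and Tspan12 lost its call. The log2 fold change of Rspo3, not called, was 0.30 with the interferon term.

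Leaving out each library in turn gave 0 to 2 members higher and 1 lower over both lines, 3 to 10 other pathway genes higher and 2 to 3 lower, 2 to 3 lower and 3 to 4 higher in line 2, 0 in either direction in line 1, 1 to 2 lower and 1 higher in the difference between lines, and 4 to 7 lower and 4 to 6 higher between the WT lines. The 10 other pathway genes came without WT line 1 library 1, and the 0 members higher without WT line 1 library 2, among others. Uncalled values changed sign for Rspo3 (-0.263 to 0.218), Fzd7 (-0.0358 to 0.135) and Wnt5a (-0.00338 to 0.139). The cause of these changes was not tested.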
